A study of Mus musculus with 6 samples.

Results

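The genes of the NFκB core machinery were followed in the olfactory bulb (OB) of aged Tg2576 mice. These are the DNA-binding subunits Rel, Rela, Relb and Nfkb2, the inhibitors Nfkbia, Nfkbib and Nfkbie, and the kinase subunits Chuk, Ikbkb and Ikbkg. The 10 genes were set by name, and each was read from the probe set that carries its symbol in the platform annotation. A probe set was found for 9 of the 10 genes, on an array that names 19505 genes and gave 22206 probe sets to test, and each of the 9 had a single probe set. Chuk, which encodes the kinase subunit IKKα, was not analysed here.

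The samples were whole OBs of 3 Tg2576 and 3 WT female mice, all 18 months old, each hybridised to its own mouse Clarion S array (Affymetrix). Tg2576 mice carry a human amyloid precursor protein transgene with the Swedish mutations under the hamster prion promoter, and the WT mice were their littermates. The values are RMA expression values on a log2 scale. To make them the authors corrected background, aligned the arrays and merged the probes of a set. In such bulk tissue, fewer cells of a type and less RNA per cell cannot be told apart. Each array is a separate mouse, and 3 against 3 limits the precision of every difference.

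NFκB factors are dimers of Rel proteins that wait in the cytoplasm of resting cells, held there by inhibitors of the IκB family. Signals from cytokine and Toll-like receptors activate the IκB kinase, which phosphorylates the inhibitor and marks it for degradation, so that the dimer enters the nucleus. The switch itself acts on proteins, which arrays do not measure. Several components are themselves NFκB target genes, IκBα being the best known, and their mRNA is often used as a readout of the feedback. In brain the pathway is known from glia, blood vessels and neurons alike.

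None of the 9 NFκB genes changed in Tg2576 OBs by thresholds taken from the study, an unadjusted p under 0.01 in limma with a fold over 1.3 or under 0.7. Over all probe sets 0.797% passed these thresholds, of which 155 were higher in Tg2576 and 22 were lower in Tg2576. The fold limits are unequal on the log2 scale, at 0.38 and -0.51, and with equal limits 230 probe sets passed. At an unadjusted p under 0.05 in limma without a fold limit, 1014 were higher and 882 lower. With the weaker limit of an unadjusted p under 0.05 limma named 1 of the 9 genes, Relb, and limma-trend named 0, beside 8.54% of all probe sets in limma. Over the whole array 0 probe sets passed a 5% false discovery rate in limma, where 1896 had an unadjusted p under 0.05, and 9 did in limma-trend, and the smallest adjusted p among the NFκB genes was 0.533. The differences ran from -0.19 to 0.19 on the log2 scale, with a median of -0.049 against -0.0049 over all probe sets. For each of the 9 genes the 95% confidence interval of the difference lay wholly inside the fold thresholds, which was so for 17937 of the 22206 probe sets. The intervals of Nfkbia and Ikbkg, down to -0.43 and -0.40, reached past -0.38, the log2 value of a 1.3-fold fall. Signals of Nfkbie and Ikbkg lay under the median of the negative control probe sets in every array, which limits what their intervals show. The arrays of both genotypes did not overlap for 2 of the 9 genes, Relb and Rel, and over all probe sets this held for 14.1%.

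**Figure D1:**
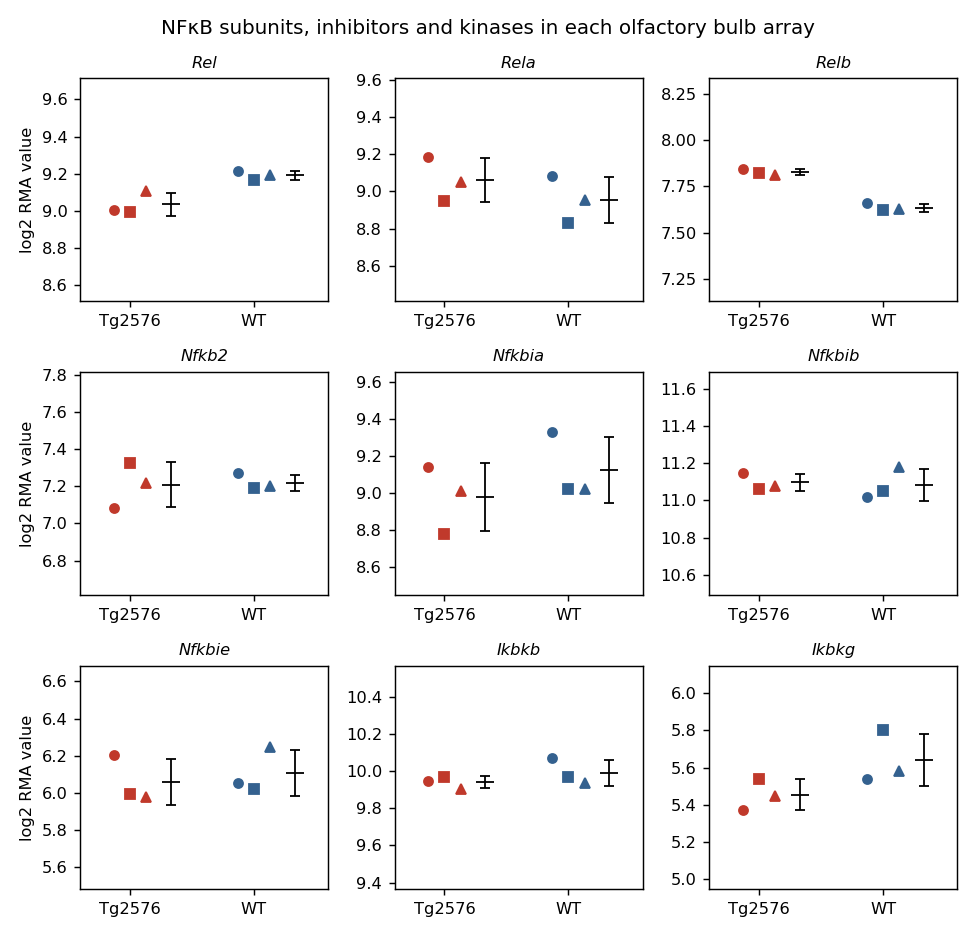
Log2 RMA value of each NFκB gene (vertical axes, each 1.2 units high) in the Tg2576 (left, red) and WT (right, blue) arrays, with circle, square and triangle for replicates 1, 2 and 3 and a bar for the mean and SD of 3 mice. The groups stand apart for Rel, lower in Tg2576, and for Relb, higher in Tg2576, and overlap for the other 7 genes.

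Among the subunits, Relb stood apart most. It encodes the partner of p52 in the non-canonical branch of the pathway. Relb was at 7.85, 7.83 and 7.81 in Tg2576 replicates 1 to 3, against 7.66, 7.62 and 7.63 in WT replicates 1 to 3. All Tg2576 arrays lay above all WT arrays, and the spread within each genotype was small, with an SD of 0.018 in Tg2576 and 0.021 in WT OBs (n = 3 each). The difference was 0.19 on the log2 scale (SE 0.070, 95% confidence interval 0.032 to 0.35), a fold of 1.14 with an unadjusted p of 0.0243 and an adjusted p of 0.533 in limma. Of all probe sets 99.7% had a larger pooled SD than Relb, and the moderation in limma drew that SD toward the typical value before the test. The difference stayed between 0.18 and 0.20 in all 14 other settings, and its unadjusted p was under 0.05 in 9 of them.

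Rel, the gene of c-Rel, a subunit best known from lymphocytes and myeloid cells, was the other subunit without overlap. It was at 9.003, 8.995 and 9.108 in the Tg2576 arrays and at 9.216, 9.164 and 9.193 in the WT arrays. Each Tg2576 value was thus below each WT value. The difference was -0.16 (SE 0.074, 95% confidence interval -0.33 to 0.014), with an unadjusted p of 0.067 and an adjusted p of 0.613 in limma. Its sign was the same in 14 of 14 other settings, from -0.19 to -0.14, and its unadjusted p was under 0.05 in 2 of them. The mean level of 8 lymphocyte markers ran from 6.91 to 7.04 in Tg2576 and from 6.86 to 7.13 in WT arrays. Only 3 of these 8 lay above the median of the negative control probe sets in every array. The mean of 9 microglia markers ran from 8.84 to 8.93 in Tg2576 and from 8.77 to 8.82 in WT arrays, without overlap. By sign 6 of these 9 were higher and 3 lower in Tg2576, and 0 were called, beside 0.797% of all probe sets. The part of either cell type in the values of Rel was not tested.

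Rela encodes p65, the transactivating subunit of the canonical dimer. It was at 9.18, 8.95 and 9.05 in Tg2576 OBs and at 9.08, 8.83 and 8.95 in WT OBs, so the groups overlapped over most of their range. The difference of 0.11 (SE 0.097, adjusted p = 0.82) had a 95% confidence interval from -0.12 to 0.33, or a fold between 0.923 and 1.26. Nfkb2, which encodes p100, an inhibitor-like precursor that is cut to p52, was at 7.09, 7.33 and 7.22 in Tg2576 and at 7.27, 7.19 and 7.2 in WT OBs. The Tg2576 values lay on both sides of the WT values, and the difference of -0.011 (SE 0.086) turned positive in 4 of 14 other settings. Nfkb1, the gene of p105 and p50, is not among the genes followed and was not analysed here.

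The inhibitors overlapped between genotypes in every case. Nfkbia, the gene of IκBα, was at 9.14, 8.78 and 9.01 in Tg2576 and at 9.33, 9.02 and 9.02 in WT OBs. Its pooled SD of 0.18 was the largest of the 9 genes, with Tg2576 replicate 2 as the lowest array and WT replicate 1 as the highest. The difference was -0.15 (SE 0.12, 95% confidence interval -0.43 to 0.13, adjusted p = 0.804). It was -0.23 without Tg2576 replicate 1, -0.047 without Tg2576 replicate 2 and -0.044 without WT replicate 1, and it kept its sign in all 14 other settings. Nfkbib, which encodes IκBβ, was at 11.15, 11.06 and 11.08 in Tg2576 and at 11.02, 11.05 and 11.18 in WT OBs, a difference of 0.013 (SE 0.079) whose sign changed with the setting. Nfkbie, which encodes IκBε, was at 6.20, 5.99 and 5.98 in Tg2576 and at 6.05, 6.02 and 6.25 in WT OBs, with a difference of -0.049 (SE 0.098). The values of Nfkbie lay under the median of the negative control probe sets in all 6 arrays.

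The kinase was represented by its catalytic subunit IKKβ and its regulatory subunit NEMO. Ikbkb, the gene of IKKβ, was at 9.94, 9.97 and 9.91 in Tg2576 and at 10.07, 9.97 and 9.94 in WT OBs. The arrays overlapped and varied little, and the difference of -0.054 (SE 0.076) had a 95% confidence interval from -0.23 to 0.12. Ikbkg, the X-linked gene of NEMO, was at 5.37, 5.54 and 5.45 in Tg2576 and at 5.54, 5.80 and 5.58 in WT OBs. It had the most negative difference of the 9 genes, -0.19 (SE 0.095, 95% confidence interval -0.40 to 0.030, adjusted p = 0.637), and its groups overlapped at 5.54. As for Nfkbie, all 6 values lay under the negative control medians, which ran from 6.78 to 6.91.

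**Figure D2:**
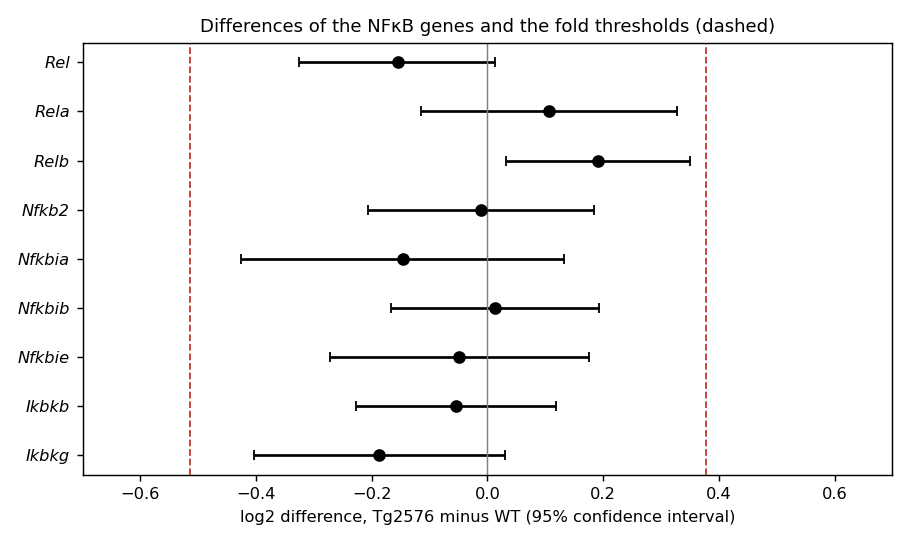
Log2 difference of each NFκB gene, Tg2576 minus WT (horizontal axis), with its 95% confidence interval from limma (3 arrays per genotype). Dashed lines mark the fold thresholds of 0.7 and 1.3, and all 9 intervals lie between them, while only that of Relb leaves out 0. Signals of Nfkbie and Ikbkg lay under the median of the negative control probe sets in every array.

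By role, the mean deviation from the WT mean was 0.029, 0.023 and 0.046 for the 4 subunits in the Tg2576 arrays, against 0.056, -0.049 and -0.0073 in the WT arrays. For the 3 inhibitors it was 0.060, -0.16 and -0.082 in Tg2576, against 0.029, -0.073 and 0.044 in WT arrays. Both roles overlapped between genotypes, and within the subunits Relb and Rel lay on opposite sides. The inhibitors did not move together in WT replicate 3, where Nfkbia was at -0.10, Nfkbib at 0.095 and Nfkbie at 0.14. For the 2 kinase subunits it was -0.16, -0.062 and -0.14 in Tg2576, against -0.011, 0.068 and -0.058 in WT arrays. The kinase values just failed to overlap, and most of that difference came from Ikbkg, whose signal lay under the negative controls.

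The balance of inhibitor and subunit mRNA was described within each array, since a log2 ratio of a pair of genes from the same array does not move with a shift of a whole array. The ratio of Nfkbia to Rela, expressed relative to its WT mean, was at -0.21, -0.34 and -0.21 in the Tg2576 arrays and at 0.078, 0.024 and -0.10 in the WT arrays. All Tg2576 values lay below all WT values, with a mean of -0.25 in Tg2576 (SD 0.075 in Tg2576 and 0.092 in WT arrays, n = 3 each). Neither gene alone showed this separation. Nfkbia and Rela deviated the same way in both genotypes, with WT replicate 1 high and Tg2576 replicate 2 low for each gene relative to its own group, so the ratio varied less within groups than Nfkbia did. The ratios of Nfkbib and Nfkbie to Rela, and those of Nfkbia to Rel and to Ikbkb, overlapped between genotypes. The ratio of Nfkb2 to Relb did not overlap, at -0.35, -0.083 and -0.18 in the Tg2576 arrays and at 0.027, -0.016 and -0.010 in the WT arrays. The 6 pairs were chosen with earlier results of these data known and were not tested. Non-overlap in 2 of 6 stands beside 14.1% of single probe sets, which is not a background for ratios. The pairs share genes, and Relb did not overlap between genotypes by itself. None of the ratios speaks of protein.

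**Figure D3:**
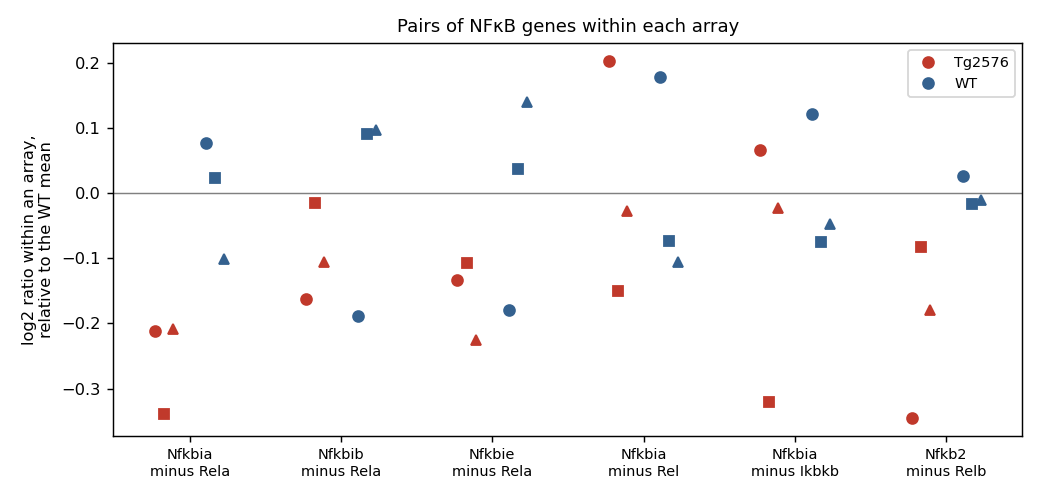
Log2 ratio of 6 pairs of NFκB genes within each array, relative to the WT mean of that ratio (vertical axis), for Tg2576 (red) and WT (blue) arrays, with circle, square and triangle for replicates 1, 2 and 3. The ratios of Nfkbia to Rela and of Nfkb2 to Relb are lower in all 3 Tg2576 arrays than in any WT array, and the other 4 overlap.

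Since some components are NFκB targets, sequences upstream of their start sites are shown for the genes that carry the binding motif there. RefSeq promoters (GRCm38.p6) were found for 8 of the 10 genes, and the 250 bases before each start site were searched on both strands for the κB consensus. A match was found for Nfkbia, Nfkbie, Rel and Nfkb2 and not for Rela, Nfkbib, Chuk or Ikbkg. Among these promoters Nfkb2 has 3 start sites and Ikbkg 4, which gives them more sequence to match. Each of the 3 Nfkb2 windows held a match, and only that of the most upstream of these 3 start sites is shown. Over all 32851 promoter windows 7.25% held a match, and 9.13% of the 15691 genes of the array with a promoter did. A match is a run of letters and does not show that the factor binds. In the windows that follow the matched bases are in capitals, and overlapping matches run together.
Nfkbia, chr12:55492648-55492897, minus strand: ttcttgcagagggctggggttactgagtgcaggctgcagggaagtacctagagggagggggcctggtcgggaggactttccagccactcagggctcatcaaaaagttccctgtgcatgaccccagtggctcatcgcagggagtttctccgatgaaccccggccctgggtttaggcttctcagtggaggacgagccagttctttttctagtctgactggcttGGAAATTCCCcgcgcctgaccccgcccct
Nfkbie, chr17:45555450-45555699, plus strand: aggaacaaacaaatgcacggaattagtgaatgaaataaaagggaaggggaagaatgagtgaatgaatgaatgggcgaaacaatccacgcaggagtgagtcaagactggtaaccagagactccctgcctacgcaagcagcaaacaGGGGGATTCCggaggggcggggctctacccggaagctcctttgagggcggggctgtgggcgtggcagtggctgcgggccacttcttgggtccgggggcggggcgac
Rel, chr11:23770970-23771219, minus strand: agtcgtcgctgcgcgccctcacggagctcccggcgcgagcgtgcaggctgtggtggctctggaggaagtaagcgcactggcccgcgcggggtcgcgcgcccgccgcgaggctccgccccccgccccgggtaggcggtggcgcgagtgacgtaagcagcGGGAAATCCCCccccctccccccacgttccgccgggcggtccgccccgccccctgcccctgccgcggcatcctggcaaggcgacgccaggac
Nfkb2, the most upstream start site, chr19:46304487-46304736, plus strand: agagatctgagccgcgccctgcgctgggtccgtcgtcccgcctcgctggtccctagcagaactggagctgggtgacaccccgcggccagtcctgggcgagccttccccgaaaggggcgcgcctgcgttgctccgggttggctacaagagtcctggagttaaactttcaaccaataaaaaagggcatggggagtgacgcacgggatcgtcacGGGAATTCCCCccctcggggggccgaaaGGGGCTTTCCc

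The match of Nfkbia begins 29 bases before its start site and that of Nfkbie 106 bases before it. The 4 NFκB genes with a match had differences of -0.15 (Nfkbia), -0.049 (Nfkbie), -0.16 (Rel) and -0.011 (Nfkb2), all below 0 and none past the thresholds. Those without a match and with a probe set differed by 0.11 (Rela), 0.013 (Nfkbib) and -0.19 (Ikbkg). Across the array, the 1432 genes with a match had a median difference of -0.0029, and 15 of them rose and 3 fell, which is 1.26%. The 14259 genes without a match had a median of -0.0023, and 102 rose and 9 fell, or 0.778%. Whether these shares differ was not tested.

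Genes around the core were grouped in 5 lists by their place in the pathway, of which 103 of 111 genes had a probe set. Receptors and adaptors held all 3 called genes, and each was higher in Tg2576 OBs. The medians of the lists lay between -0.013 and 0.038, and 3 of 103 genes called compares with 0.797% of all probe sets. Without overlap between genotypes were 9 higher and 8 lower genes of the 103, beside 14.1% of all probe sets. The 18 ligands and receptors comprised 2 that rose and 16 that did not pass. Tnfrsf1a, the gene of TNF receptor 1, through which TNF activates the canonical kinase, was at 8.86, 8.71 and 8.72 in Tg2576 and at 8.52, 8.25 and 8.12 in WT OBs. The lowest Tg2576 array lay above the highest WT array. It rose by 0.46 (SE 0.11, 95% confidence interval 0.21 to 0.72, adjusted p = 0.37), and the call ended without Tg2576 replicate 1 (0.41), WT replicate 2 (0.44) or WT replicate 3 (0.37).

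Tnfrsf1b encodes TNF receptor 2, a TRAF-binding receptor of immune and glial cells. Unlike Tnfrsf1a it had lower values in Tg2576, 7.47, 7.31 and 7.47 against 7.60, 7.79 and 7.58 in WT OBs. The groups did not overlap, and the difference of -0.24 (SE 0.090, unadjusted p = 0.0271, adjusted p = 0.537) did not pass the thresholds. Tlr3, a Toll-like receptor for double-stranded RNA, was at 9.98, 10.22 and 10.23 in Tg2576 and at 9.94, 9.47 and 9.55 in WT OBs. It rose by 0.49 (SE 0.13, 95% confidence interval 0.19 to 0.80, adjusted p = 0.418). WT replicate 1 lay just under the lowest Tg2576 array, and omitting replicate 2 or 3 of the Tg2576 group (0.45 each) or of the WT group (0.40 and 0.44) ended the call, as did a replicate block (0.49).

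**Figure D4:**
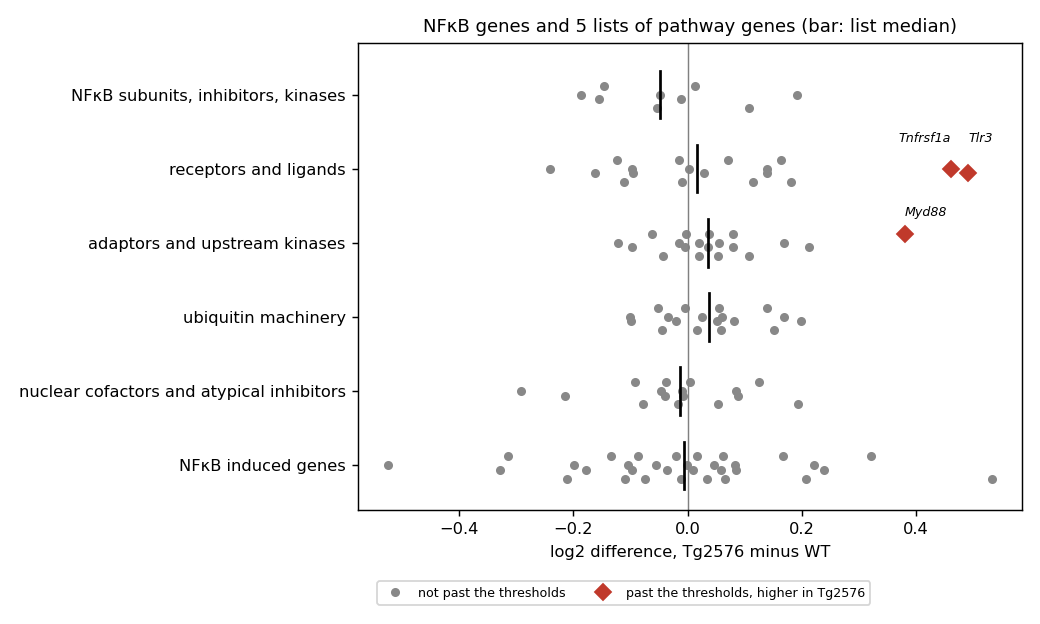
Log2 difference, Tg2576 minus WT (horizontal axis), of each gene with a probe set among the NFκB genes and the 5 lists of pathway genes, with black bars at list medians and red diamonds for genes past the thresholds. Tnfrsf1a, Tlr3 and Myd88 are the only red points, and the NFκB genes spread no farther than 0.19 from 0.

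Of 19 adaptors and upstream kinases with a probe set, 1 rose past the thresholds, beside 0.797% of all probe sets. Myd88, the adaptor of most Toll-like and interleukin 1 receptors, was at 6.85, 7.05 and 6.82 in Tg2576 and at 6.51, 6.53 and 6.54 in WT OBs. The WT arrays were almost level and lay under the negative control medians, and all Tg2576 arrays stood above them. It rose by 0.38 (SE 0.085, 95% confidence interval 0.19 to 0.58, adjusted p = 0.339), just past the fold threshold, and the call ended without Tg2576 replicate 2 (0.31), without WT replicate 1 (0.37) and after median centring (0.37). Tlr3 is the Toll-like receptor that signals without MyD88. Traf2, an adaptor of TNF receptors, differed by 0.21 (SE 0.10, adjusted p = 0.616). Map3k14, the NIK kinase that starts the processing of p100, differed by -0.12 (SE 0.077), with 8.49, 8.44 and 8.61 in Tg2576 and 8.63, 8.63 and 8.64 in WT OBs. These Map3k14 values did not overlap, although the unadjusted p was 0.154.

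None of the 18 genes of the ubiquitin machinery passed the thresholds, and at an unadjusted p under 0.05 limma named 0, beside 8.54% of all probe sets. Of the linear ubiquitin ligase that activates the kinase through NEMO, the catalytic subunit Rnf31 differed by 0.20 (SE 0.14), with overlap. Its partner Sharpin differed by 0.17 (SE 0.079) without overlap, at 10.96, 10.88 and 10.84 in Tg2576 and 10.81, 10.68 and 10.69 in WT OBs. Rnf11, a member of the A20 editing complex, differed by 0.15 (SE 0.089). Among 16 nuclear cofactors and atypical inhibitors 0 were called, while 1 higher and 1 lower gene had an unadjusted p under 0.05, beside 0.797% and 8.54% of all probe sets. Nfkbid, the nuclear inhibitor IκBNS, was at 7.59, 7.52 and 7.69 in Tg2576 and at 7.897, 7.996 and 7.776 in WT OBs, a difference of -0.29 (SE 0.089, unadjusted p = 0.0106, adjusted p = 0.475). No Tg2576 array reached the lowest WT array. Csnk2a1, a catalytic subunit of casein kinase 2, which phosphorylates IκBα and p65, differed by 0.19 (SE 0.075), and Nkap, an NFκB activating protein, by -0.22 (SE 0.12) at levels under the negative control medians.

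The 32 genes that NFκB induces had differences of both signs. In limma 0 were called, while at an unadjusted p under 0.05 it named 5 higher and 4 lower genes, or 9 of 32 beside 8.54% of all probe sets. Their median difference was -0.0061, from -0.52 to 0.53. Gadd45b, a stress-induced survival gene, was at 9.02, 9.02 and 8.81 in Tg2576 and at 9.43, 9.19 and 9.21 in WT OBs, with a difference of -0.33 (SE 0.10, unadjusted p = 0.010, adjusted p = 0.471). Mmp9, a matrix protease gene, was at 7.09, 6.94 and 7.25 in Tg2576 and at 6.68, 6.86 and 6.77 in WT OBs. That difference was 0.32 (SE 0.099), and it passed the thresholds without Tg2576 replicate 2 (0.40). Birc3, which encodes the ubiquitin ligase cIAP2, differed by 0.22 (SE 0.071) with no overlap, at 7.04, 7.10 and 7.06 in Tg2576 and 6.85, 6.81 and 6.88 in WT OBs. All WT values of Birc3, and those of Mmp9 in WT replicates 1 and 3, lay under the negative control medians of their arrays. The extremes of the list, picked after their values were seen, were Il1b at -0.52, under the negative control medians in all arrays, and Bcl2a1b at 0.53, whose Tg2576 replicate 3 stood at 9.52 against 8.53 and 8.83 in the other Tg2576 arrays.

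**Figure D5:**
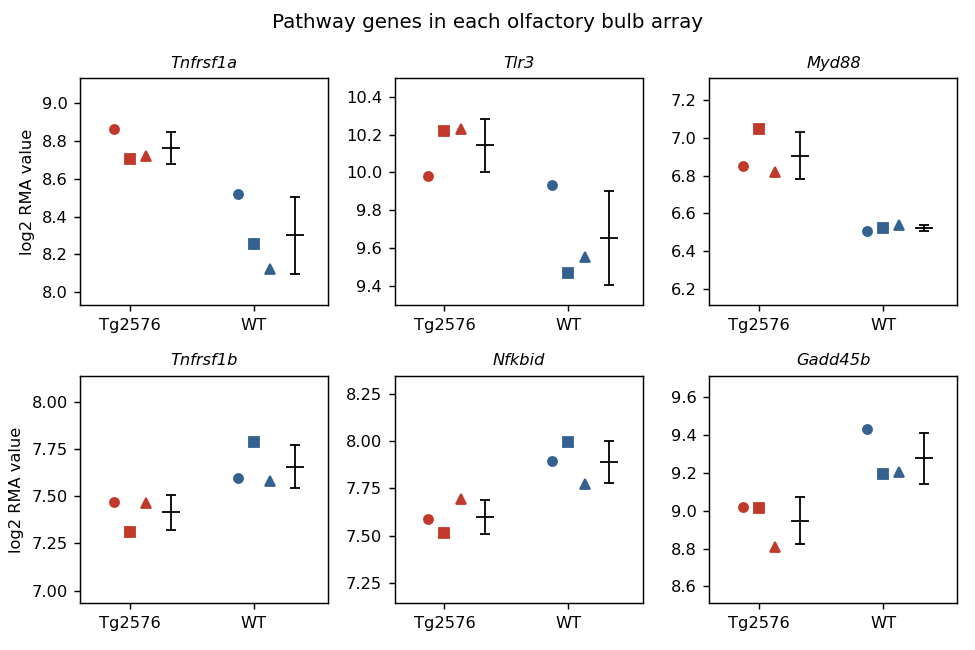
Log2 RMA value of 6 pathway genes (vertical axes, each 1.2 units high) in the Tg2576 (left, red) and WT (right, blue) arrays, with circle, square and triangle for replicates 1, 2 and 3 and a bar for the mean and SD of 3 mice. Tnfrsf1a, Tlr3 and Myd88 are higher and Tnfrsf1b, Nfkbid and Gadd45b lower in Tg2576. These 6 are among the pathway genes without overlap, 9 higher and 8 lower of 103, beside 14.1% of all probe sets.

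Mean levels of the markers of several cell types stood apart between genotypes. Of single probe sets 14.1% did not overlap, which is not a background for list means. Relative to the WT mean, the mean of all 8 astrocyte markers was 0.16 to 0.25 in Tg2576 and -0.035 to 0.027 in WT arrays. That of the 9 endothelial markers measured, of 10 listed, was 0.10 to 0.31 in Tg2576 and -0.035 to 0.028 in WT arrays. By sign, 7 of the astrocyte and 8 of the endothelial markers were higher in Tg2576 and 1 of each was lower. In each of these lists 1 marker was called, beside 0.797% of all probe sets. The 7 measured mitral and tufted cell markers averaged 0.17 to 0.27 in Tg2576 and -0.073 to 0.058 in WT arrays, and 7 of 8 oligodendrocyte markers averaged 0.15 to 0.41 in Tg2576 and -0.15 to 0.11 in WT arrays. All 7 of either list were higher in Tg2576 by sign, and 1 of each was called. The 9 measured microglia markers averaged 0.049 to 0.14 in Tg2576 and -0.025 to 0.025 in WT arrays, with 6 higher and 3 lower by sign and 0 called. The 10 bulb interneuron markers overlapped, at -0.093 to 0.0073 in Tg2576 and -0.019 to 0.013 in WT arrays. So did the 6 choroid plexus markers, at 0.00485 to 0.135 in Tg2576 and -0.054 to 0.050 in WT arrays. The 8 measured lymphocyte markers overlapped as well, at -0.0955 to 0.039 in Tg2576 and -0.145 to 0.131 in WT arrays. The 10 sensory neuron markers averaged 0.26 to 0.69 in Tg2576 and -0.13 to 0.19 in WT arrays. By sign all 10 were higher in Tg2576, and 4 were called, beside 0.797% of all probe sets. Markers of non-neuronal olfactory mucosa, 9 of 10 measured, were at 1.44 and 1.49 in Tg2576 replicates 1 and 3, at -0.31 in Tg2576 replicate 2, and from -0.31 to 0.43 in WT arrays. The part of these cell types in the values of Tnfrsf1a, Tlr3, Myd88 or the NFκB genes was not tested. All 10 markers of bulb interneurons and 7 of 7 measured markers of mitral and tufted cells, the neurons that define the OB, lay above the negative control medians in every array.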

How the data were processed

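The authors deposited log2 expression values of 28815 probe sets, made from the arrays by RMA. No source used here states the RMA version. Array medians lay between 8.18 and 8.22, and the arrays correlated with an r of 0.992 to 0.995. After removal of 63 spike-in and 6546 further control rows, limma 3.58.1 in R 4.3.3 was fitted to 22206 probe sets (lmFit and eBayes, genotype as the only term), with p-values adjusted by the Benjamini-Hochberg method over all of them. No depth exists for arrays, and their number limits the precision. Of the probe sets, 19572 had 1 gene symbol and 2634 had none. Of the pathway list genes 103 of 111 matched, Skp1a through its gene ID.

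The NFκB genes and the lists were chosen with earlier results of these data known. The text names all NFκB genes and, in each list, every called gene and the 3 genes of smallest p. Negative controls were the 5222 probe sets named so in the file. Other settings tried were robust limma-trend, weighted arrays, normalization by cyclic loess, quantiles or medians, a minimum mean of 6, only annotated probe sets, the replicate number as a block, omission of single arrays, and further thresholds. A mean over several probe sets was planned and had no use, since each measured NFκB gene had 1. The fit was tested on simulated data whose variances were drawn from the fitted model, so its spread was that of the model. Of 50 probe sets changed 1.3-fold in either direction 36% were called, and of 50 changed 1.5-fold 84%. Numbers were handled in Python 3.11.15 with numpy 2.4.6 and pandas 2.3.3, and figures drawn in matplotlib 3.10.9.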

Additional observations from a re-analysis of the deposited data

How the results depend on the processing

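No NFκB gene was called in any of the 14 other fits, with a reciprocal fold threshold or without one, where the smallest p of an NFκB gene was 0.0196. At an unadjusted p under 0.05 the count was 1 (Relb) as reported, and 0 to 2 in the other fits, with Rel as the second under array weights and quantile normalization. Nfkb2, Nfkbib and Nfkbie changed sign in some fits, none of them called. Without a fold threshold 468 probe sets passed, and 1896 at an unadjusted p under 0.05, where the cofactors held 2 and the induced genes 9. The number of called receptors and ligands was 1 with a replicate block and 0 to 2 with 1 array left out, and of adaptors 0 after median centring and 0 to 1 with 1 array left out. That of induced genes was 0 to 1 with 1 array left out. The replicate block gave 225 calls over all probe sets against 177 without it. Same-numbered arrays did not deviate together (r of 0.036, -0.038 and -0.043), and the numbers are taken as labels only. The cause of these changes was not tested. Leaving out an array moved the count over all probe sets between 169 and 249. With limma-trend 9 probe sets passed a 5% false discovery rate, and 6 without Tg2576 replicate 2. Differences of Nfkbie and Ikbkg are limited by signals under the negative controls.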
